A study of Mus musculus with 8 samples.

Results

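The genes described here encode the canonical inflammasome machinery: the sensors Nlrp3, Nlrc4 and Aim2, the adaptor Pycard, the caspases Casp1, Casp4 and Casp8, the pore-forming protein Gsdmd and the cytokine Il18. They were chosen by name, and every region that the deposited table assigns to one of these 9 symbols was taken. This gave 82 of the 129304 regions in the table, and 9 of its 18707 gene symbols. The readout is H3K27ac, the acetyl mark on lysine 27 of histone H3 that active promoters and enhancers carry. It was measured by ChIP-seq, in which chromatin fragments bound by an antibody to the mark are sequenced.

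Microglial nuclei of C57BL/6 wild-type (WT) mice were compared with those of C57BL/6 mice carrying a knockout of Grn (GrnKO), the gene of progranulin, a secreted protein that reaches lysosomes. All mice were 2 years old and received no other treatment that the labels name. Nuclei came from frozen hemibrains and were sorted for PU.1, a transcription factor of myeloid cells, and against OLIG2 and NEUN, which mark oligodendrocyte-lineage and neuronal nuclei. For each genotype there were 2 replicates, and every replicate pooled the nuclei of 2 mice. Beside its H3K27ac library each pool had an input library, made from chromatin without the antibody step. The p-values below therefore rest on 2 pools per genotype. In the main test (limma) the spread between pools is drawn partly from all tested regions or genes. In such sorted bulk chromatin, fewer cells with the mark and less of the mark per cell cannot be told apart.

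An inflammasome is a cytosolic complex that assembles when a sensor detects a microbial or damage signal. The sensor recruits the adaptor ASC, the product of Pycard, which clusters caspase-1. Caspase-1 then matures the cytokines IL-1β and IL-18 and cleaves gasdermin D, whose released fragment forms pores in the plasma membrane and can end in a lytic death called pyroptosis. In microglia the NLRP3 inflammasome has been studied as a response to protein aggregates and to lysosomal damage.

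Promoter sequences from RefSeq (assembly GRCm38.p6) were available for 8 of the 9 genes, all but Gsdmd, in 10 windows. The table's coordinates are in build mm10, per the submitters' processing notes, and for all 8 genes the start site implied by the table equals a RefSeq start site. The 250 bases before each start site were searched on both strands for a PU.1/ETS motif (GAGGAAGT, reverse complement ACTTCCTC), since PU.1 is the factor by which the nuclei were sorted. It was present in the Aim2 and Pycard windows, 2 of the 10, and in 2.44% of all 32851 promoter windows of that length. In the sequences below, written 5′ to 3′ on the strand of the gene, capitals mark that match; the Nlrp3 window is shown for comparison because it lies inside the promoter region with the highest WT signal of the 9 genes, and it holds no PU.1/ETS match.

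Aim2, chr1:173420354-173420603, plus strand: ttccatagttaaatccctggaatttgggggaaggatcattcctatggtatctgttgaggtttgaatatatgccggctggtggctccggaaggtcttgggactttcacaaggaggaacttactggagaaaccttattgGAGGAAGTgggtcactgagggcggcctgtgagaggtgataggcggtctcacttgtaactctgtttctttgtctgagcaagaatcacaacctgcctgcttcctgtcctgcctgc
Pycard, chr7:127993868-127994117, minus strand: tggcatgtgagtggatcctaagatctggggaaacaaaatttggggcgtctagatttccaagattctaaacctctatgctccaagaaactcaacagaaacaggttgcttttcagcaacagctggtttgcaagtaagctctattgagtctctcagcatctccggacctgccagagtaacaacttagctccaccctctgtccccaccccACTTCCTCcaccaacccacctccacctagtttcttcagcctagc
Nlrp3, chr11:59541319-59541568, plus strand: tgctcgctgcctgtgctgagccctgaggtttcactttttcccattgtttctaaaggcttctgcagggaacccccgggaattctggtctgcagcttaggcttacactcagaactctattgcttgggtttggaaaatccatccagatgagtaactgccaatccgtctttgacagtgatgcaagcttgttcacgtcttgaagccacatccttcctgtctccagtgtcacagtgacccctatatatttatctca

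In the Aim2 window the match lies 113 to 106 bases before the start site on the strand of the gene. In the Pycard window it lies 44 to 37 bases before the start site on the opposite strand. No member window held the narrow NF-kappaB form that was searched (GGGA, any base, then TTTCC, in 0.356% of all windows), the interferon-stimulated response element (ISRE, a pair of GAAA with 2 bases between, 2.98%), the AP-1 motif (TGANTCA, 6.75%) or the lysosomal CLEAR element (TCACGTGA, 0.785%). A wider NF-kappaB form (GGG, a purine, any 2 bases, 2 pyrimidines, CC) was searched after the values were seen. It was in 3 of the 10 windows, 1 of Nlrp3 and both of Casp4, and in 7.25% of all windows. The Casp4 windows overlap each other and hold the same matches, which are thus counted more than once. No match overlapped one of another motif, and absence of a match says only that these letters are not in these windows.

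The H3K27ac libraries of WT totalled 15491642.5 and 18433104 tags, those of GrnKO 16348961.5 and 20030832. The authors scaled values to 10000000 tags per library, and such values are called scaled tags here. The floor of detection, 3 tags, is 1.50 to 1.94 scaled tags in the H3K27ac libraries. In the inputs, which are shallower (4078179 to 14415969 tags), it is 2.08 to 7.36 scaled tags. WT replicate 1 stood apart, with 49.4% of its tags in the listed regions against 63.3 to 65.7% in the other 3 H3K27ac libraries. Levels below are in the authors' scaling, and every log2 change is on the log2(value + 1) scale after TMM scaling, which corrects for such a difference in composition, unless stated. Without TMM scaling the median log2 change of all tested genes moves from -0.05 to 0.18. The Grn region nearest to its start site held 294 and 311 scaled tags in WT and 0 in both GrnKO libraries, as the genotype labels say. The labels give no sex of the mice. Xist, transcribed from the inactive X of females, summed to 81.7 and 0 in WT replicates 1 and 2, against 128 and 5.49 in GrnKO, and 4 Y-linked genes to 6.13 and 284, against 0 and 229. The replicates of each genotype thus differed in these genes, in the same way in both genotypes, and their part in the spread between replicates was not tested beyond the fit with the replicate number as a block.

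All regions span 800 bp, so that levels can be compared between genes per region. The highest region of each gene in WT, singled out after the values were seen, gave the order of the 9 genes. The highest was an intergenic region 4769 bp upstream of Gsdmd, with 284 and 426 scaled tags (355 ± 100.5, SD, n = 2), above 98.4% of all regions in the table. Next were the Nlrp3 promoter region with 296 ± 73.6 and an intergenic region 21257 bp upstream of Casp8 with 288 ± 49.7. The libraries of neighbours in this order overlapped among these 3 genes. A gap of 134 scaled tags followed, and the libraries did not overlap across it.

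Below the gap came Aim2 with 155 ± 10.9, in a region of intron 2 of 8. Casp1 had 145 ± 17.0, Pycard 130 ± 29.9 and Il18 111 ± 42.4, each at or just downstream of its start site. Each neighbouring pair from Aim2 to Il18 overlapped. Casp4 was lower, with 56.0 ± 4.79 at its promoter, and Nlrc4 was lowest, with 33.3 ± 0.0849 in intron 8 of 8.

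The genes differed in where their acetylation lay. Il18 had 1 region, over its first exon. A region 0.9 kb upstream of the Il18 start site, which the table names for Bco2, was not counted. At Casp1, Casp4 and Pycard most of the WT signal lay within 1000 bp of a start site, and regions farther away held 4.18%, 6.83% and 11.0% of it. The share farther away was 49.3% at Nlrp3, 65.3% at Casp8, 77.5% at Aim2, 80.9% at Nlrc4 and 90.6% at Gsdmd. Regions of a gene can overlap and count a tag more than once: 41 of the 82 overlapped another region of their gene. Counting only non-overlapping regions, the share was 6.80% at Pycard, 12.7% at Casp1 and 13.4% at Casp4. It was 44.0% at Nlrp3, 56.7% at Casp8, 78.4% at Aim2, 80.3% at Gsdmd and 85.1% at Nlrc4. The table assigns a region to the nearest start site, and no measurement here ties a distant region to the gene it is named for.

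**Figure D1:**
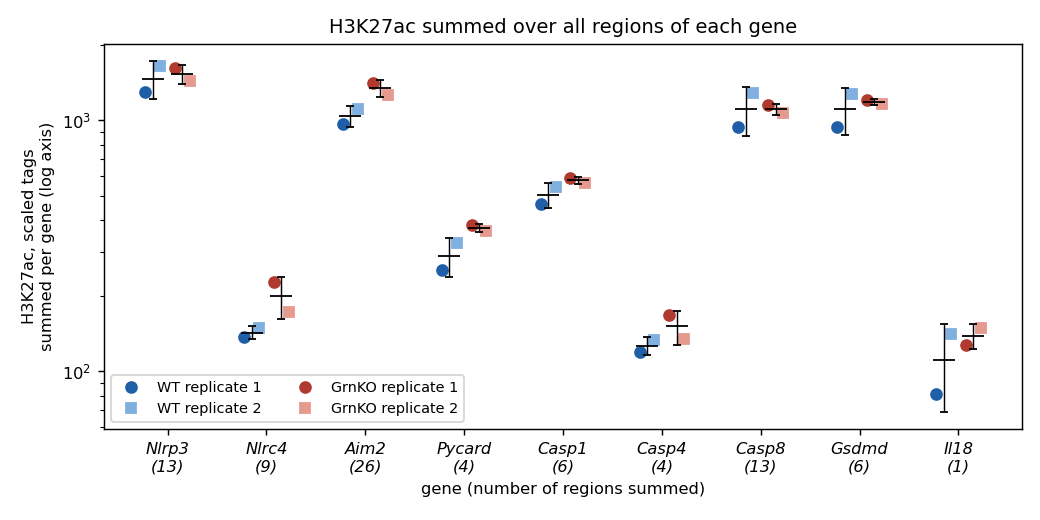
H3K27ac summed over all regions of each gene in the 4 libraries, in scaled tags on a log axis, with the number of regions in parentheses. Points are libraries, and black bars are the mean ± SD of 2 libraries per genotype. The Nlrp3 sums lie between 1293 and 1645 in all 4 libraries, and those of Il18 between 81.3 and 149.

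None of the 9 genes passed the threshold when H3K27ac was summed over its regions (limma, Benjamini-Hochberg adjusted p under 0.05 over 15380 tested genes, of which 14.5% passed). None had an unadjusted p under 0.05 either, against 27% of tested genes, and edgeR and DESeq2 on recovered reads also called 0 of the 9. All 9 had enough signal to be tested. The log2 changes ran from -0.22 at Casp8 to 0.25 at Nlrc4, and their median was 0.02. After TMM scaling both GrnKO libraries lay below both WT libraries for Nlrp3, Casp8 and Gsdmd, 3 of 9 genes against 29.4% of tested genes. They lay above for Pycard, 1 of 9 against 25.4%, and overlapped for the other 5. In the authors' scaling the order was above for Nlrc4, Aim2, Pycard, Casp1 and Casp4, 5 of 9 against 36.2% of tested genes, and below for none, against 13.5%.

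**Figure D2:**
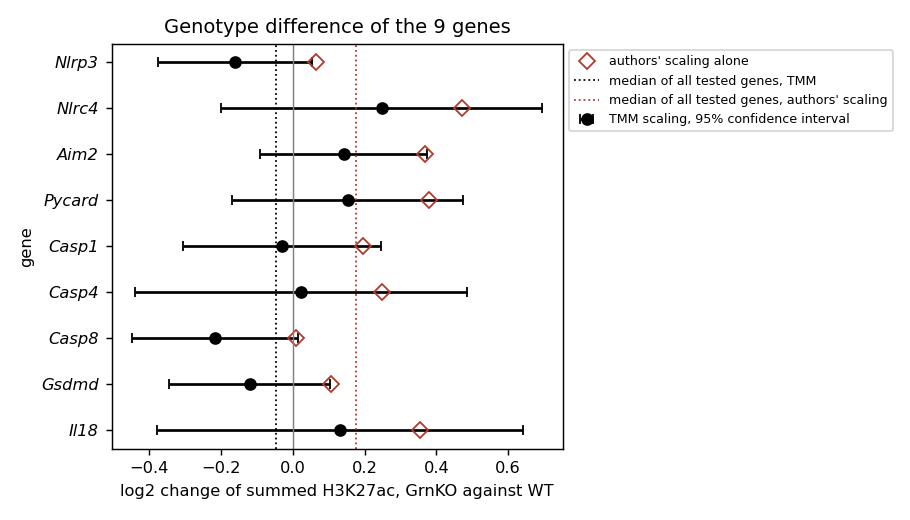
Log2 change of summed H3K27ac in GrnKO against WT for the 9 genes (horizontal axis). Black points and bars are the TMM-scaled estimate and its 95% confidence interval from limma, open diamonds are the estimate in the authors' scaling, and dotted lines are the medians of all tested genes. All 9 intervals include 0, and the diamonds lie to the right along with the median of all genes.

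Among the sensors, Nlrp3, which responds to potassium efflux and membrane or lysosomal damage, had 13 regions on chromosome 11. They summed to 1293 and 1645 scaled tags in WT, against 1623 and 1434 in GrnKO. These overlapped, but after TMM scaling both GrnKO values lay below both WT values (log2 change -0.16, SE 0.10, 95% confidence interval -0.38 to 0.05, limma adjusted p = 0.337). In the authors' scaling the change was 0.06.

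The table measures distances at Nlrp3 from an upstream and a downstream start site. At the region centred 1 bp from the downstream one (chr11:59542287-59543087) the values were 174 and 313 in WT, against 277 and 238 in GrnKO. Both GrnKO values lay within the WT range (log2 change -0.09, SE 0.18, limma adjusted p = 0.821). The highest Nlrp3 region, 43 bp before the upstream start site, held 244 and 348 in WT and 360 and 266 in GrnKO (log2 change -0.14, SE 0.16, limma adjusted p = 0.662). The Nlrp3 region with the smallest p was intergenic, 14702 bp before that start site (chr11:59526467-59527267). It held 176 and 229 in WT and 148 and 192 in GrnKO. Its log2 change was -0.47 (SE 0.18), and it did not pass the threshold (limma adjusted p = 0.111). Of the 13 Nlrp3 regions 10 had a negative log2 change and 3 a positive one.

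Nlrc4 encodes the sensor that partners NAIP proteins bound to bacterial flagellin or secretion-system parts. Its 9 regions on chromosome 17 summed to 137 and 148 scaled tags in WT and 227 and 172 in GrnKO. Both GrnKO values were higher in the authors' scaling but overlapped WT after TMM scaling (log2 change 0.25, SE 0.21, 95% confidence interval -0.20 to 0.69, limma adjusted p = 0.502). The change was 0.05 without GrnKO replicate 1, 0.44 without GrnKO replicate 2 and 0.09 without regions where an input exceeded the H3K27ac value of its pool, and none of these passed.

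The Nlrc4 promoter, at 54 bp upstream, held 11.0 and 5.15 in WT and 16.5 and 5.99 in GrnKO, low against the other promoters here (log2 change 0.16, SE 0.71, limma adjusted p = 0.926). The signal of Nlrc4 lay toward the other end of the gene. In intron 8 of 8, 28455 bp downstream of the start (chr17:74430253-74431053), the values were 14.9 and 31.7 in WT, against 52.6 and 47.4 in GrnKO. The groups did not overlap, but the region did not pass (log2 change 0.94, SE 0.37, limma adjusted p = 0.118). The input of GrnKO replicate 2 held 61.2 scaled tags there. Without WT replicate 2 the change was 1.31, and without WT replicate 1 it was 0.58.

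Aim2 encodes a sensor of double-stranded DNA in the cytosol and had 26 regions on chromosome 1, the most of the 9 genes. They summed to 970 and 1110 scaled tags in WT, against 1415 and 1267 in GrnKO, and the inputs to 295 and 90.4 for WT and 68.0 and 80.6 for GrnKO. The GrnKO sums lay above both WT sums here but overlapped them after TMM scaling, and the difference did not pass (log2 change 0.14, SE 0.11, 95% confidence interval -0.09 to 0.37, limma adjusted p = 0.451). Single Aim2 regions did, and they were the only regions past the threshold among those of the 9 genes: 2 of 70 tested regions were higher in GrnKO and 0 were lower. Of all 80728 tested regions 6.8% were higher and 2.92% lower. The share of the members' regions called was thus below the 9.72% of all tested regions that passed in either direction.

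The first Aim2 region is intergenic, 11413 bp upstream of the start site (chr1:173408791-173409591). Its values were 5.81 and 6.51 scaled tags in WT, against 38.8 and 31.2 in GrnKO. Both WT values were a few times the floor of detection, both GrnKO values were well above them, and all 4 inputs held 0 there. The floor of the WT replicate 1 input, 7.36 scaled tags, lies above both WT values. The log2 change was 2.12 (SE 0.50, limma adjusted p = 0.0116). The second lies in intron 1 of 8, 6237 bp downstream of the start (chr1:173426441-173427241). It held 26.5 and 32.0 in WT and 69.4 and 70.1 in GrnKO, with inputs of 0 to 5.55, and its log2 change was 1.01 (SE 0.30, limma adjusted p = 0.0399).

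An overlapping region centred 5943 bp downstream, which shares tags with the second, held 20.3 and 22.2 in WT and 42.2 and 52.4 in GrnKO. It was not called (log2 change 0.89, SE 0.36, limma adjusted p = 0.13). Both Aim2 calls rested on having both GrnKO libraries. Without GrnKO replicate 1 the log2 changes were 1.96 and 1.02 with adjusted p = 0.34 and 0.37 by limma, and without GrnKO replicate 2 they were 2.27 and 1.01 with adjusted p = 0.178 and 0.331. In these fits 1.65% and 2.32% of all tested regions passed. With DESeq2 the intron 1 region missed the threshold (adjusted p = 0.0506).

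Neither call was at the Aim2 promoter or at its highest region. At 78 bp upstream the values were 135 and 120 in WT, against 158 and 152 in GrnKO (log2 change 0.06, SE 0.20, limma adjusted p = 0.905). The highest Aim2 region, in intron 2, had 147 and 162 in WT and 212 and 174 in GrnKO (log2 change 0.09, SE 0.18, limma adjusted p = 0.821). Of the 21 tested Aim2 regions 14 had a positive and 7 a negative log2 change, and 5 more held too few tags to test.

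**Figure D3:**
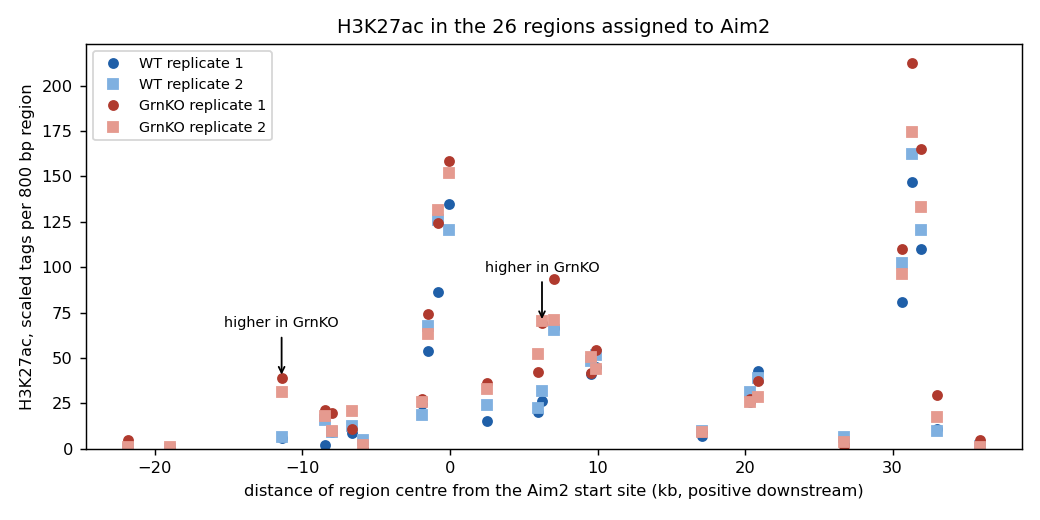
H3K27ac in the 26 regions assigned to Aim2, in scaled tags per 800 bp region (vertical axis), against the distance of the region's centre from the start site in kb. Each point is 1 region in 1 of the 4 libraries, and arrows mark the regions past the threshold. At the arrows both GrnKO libraries lie above both WT libraries, and at the start site, 78 bp upstream, the 4 libraries lie between 120 and 158.

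Pycard, the gene of the adaptor ASC, had 4 regions on chromosome 7 that summed to 253 and 324 scaled tags in WT and 381 and 363 in GrnKO. Both GrnKO sums lay above both WT sums in either scaling, but the difference did not pass (log2 change 0.15, SE 0.15, 95% confidence interval -0.17 to 0.48, limma adjusted p = 0.574). The region nearest to the start site, over its first exon, also had the smallest p of the 4. It held 109 and 151 in WT and 182 and 173 in GrnKO (log2 change 0.24, SE 0.18, limma adjusted p = 0.476). All 4 Pycard regions had a positive log2 change, between 0.03 and 0.26.

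Of the caspases, Casp1 encodes the protease that the adaptor activates, and its 6 regions on chromosome 9 summed to 466 and 545 scaled tags in WT, against 591 and 563 in GrnKO. The log2 change was -0.03 (SE 0.13, 95% confidence interval -0.31 to 0.25, limma adjusted p = 0.916), and its sign depended on the setting: it was 0.20 in the authors' scaling and 0.0027 with DESeq2. The promoter region 133 bp upstream held 81.3 and 123 in WT and 146 and 123 in GrnKO, so that the groups overlapped after TMM scaling (log2 change 0.19, SE 0.21, limma adjusted p = 0.652).

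In intron 3 of 9, 1700 bp downstream, lay the Casp1 region of smallest p, with 21.6 and 17.4 in WT and 8.26 and 7.99 in GrnKO. It did not pass (log2 change -1.37, SE 0.55, limma adjusted p = 0.131). Without WT replicate 2 the change was -1.68. The input of WT replicate 1 held 123 scaled tags there, more than any H3K27ac library.

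Casp4 encodes mouse caspase-11, which binds cytosolic lipopolysaccharide and cleaves gasdermin D directly. Its 4 regions lie next to those of Casp1 and summed to 119 and 133 scaled tags in WT and 167 and 135 in GrnKO (log2 change 0.02, SE 0.21, 95% confidence interval -0.44 to 0.49, limma adjusted p = 0.962). After TMM scaling the groups overlapped. At the promoter, 43 bp upstream, the values were 59.4 and 52.6 in WT, against 83.5 and 63.7 in GrnKO (log2 change 0.15, SE 0.28, limma adjusted p = 0.797). The Casp4 region with the smallest p, 754 bp upstream, held 28.1 and 40.2 in WT and 35.5 and 29.0 in GrnKO (log2 change -0.28, SE 0.35, limma adjusted p = 0.685).

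Casp8 encodes an initiator caspase of death-receptor signalling that can also be recruited to ASC. Its 13 regions on chromosome 1 summed to 940 and 1289 scaled tags in WT and 1149 and 1066 in GrnKO. The groups overlapped here, and GrnKO was below WT after TMM scaling. This was the gene with the smallest unadjusted p of the 9, 0.0625 by limma. Its log2 change was -0.22 (SE 0.11, 95% confidence interval -0.45 to 0.01, limma adjusted p = 0.214), and 0.0086 in the authors' scaling.

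The table places Casp8 regions at start sites of 2 transcripts. At the downstream one (chr1:58802129-58802929, centre at 27 bp) the values were 200 and 277 in WT, against 241 and 176 in GrnKO. This region had the smallest adjusted p of all 20 member regions within 1000 bp of a start site, and it did not pass (log2 change -0.42, SE 0.18, limma adjusted p = 0.152). At the upstream start site (centre at 37 bp) they were 108 and 188 in WT, against 175 and 171 in GrnKO (log2 change 0.05, SE 0.20, limma adjusted p = 0.908). The input of WT replicate 1 held 35.6 there.

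Gsdmd encodes gasdermin D, the pore itself. Its 6 regions on chromosome 15 summed to 941 and 1280 scaled tags in WT and 1206 and 1158 in GrnKO (log2 change -0.12, SE 0.10, 95% confidence interval -0.34 to 0.10, limma adjusted p = 0.518). In the authors' scaling the groups overlapped and the change was 0.11, while after TMM scaling GrnKO lay below WT. The promoter region, 29 bp upstream, held 82.6 and 126 in WT and 106 and 95.9 in GrnKO (log2 change -0.25, SE 0.22, limma adjusted p = 0.546). At the higher signal 4769 bp upstream (chr15:75857170-75857970) the values were 284 and 426 in WT, against 410 and 393 in GrnKO (log2 change -0.02, SE 0.14, limma adjusted p = 0.956).

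Il18, the cytokine that caspase-1 matures, had a single region, centred 170 bp downstream of its start site (chr9:50554470-50555270). It held 81.3 and 141 scaled tags in WT, against 127 and 149 in GrnKO. The groups overlapped and the WT libraries lay far apart (log2 change 0.13, SE 0.24, 95% confidence interval -0.38 to 0.64, limma adjusted p = 0.783). In percent that interval runs from -23% to 56.0%. For Nlrp3, the narrowest of the 9 intervals, the limits were -23% and 3.81%. The region 0.9 kb upstream of the Il18 start site (chr9:50553401-50554201) is annotated as promoter of an Il18 transcript but named for Bco2. It held 104 and 167 in WT and 134 and 112 in GrnKO. Its log2 change was -0.33 (SE 0.21, limma adjusted p = 0.358), opposite in sign to that of the Il18 region, and it did not pass.

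Across the 70 tested regions of the 9 genes, 34 log2 changes were positive and 36 negative, with a median of -0.02, next to -0.0020 over all tested regions. Both GrnKO libraries lay above both WT libraries in 12 of the 70 and below in 19, where 27% and 25.6% of all tested regions did. An unadjusted p under 0.05 was reached by 7 member regions, 4 higher and 3 lower, against 23.9% of all tested regions. All 20 tested regions within 1000 bp of a start site missed the threshold, with log2 changes from -0.70 to 0.24. In 17 of the 82 regions at least 1 input exceeded the H3K27ac value of its own pool, 11 of them among the tested ones.

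**Figure D4:**
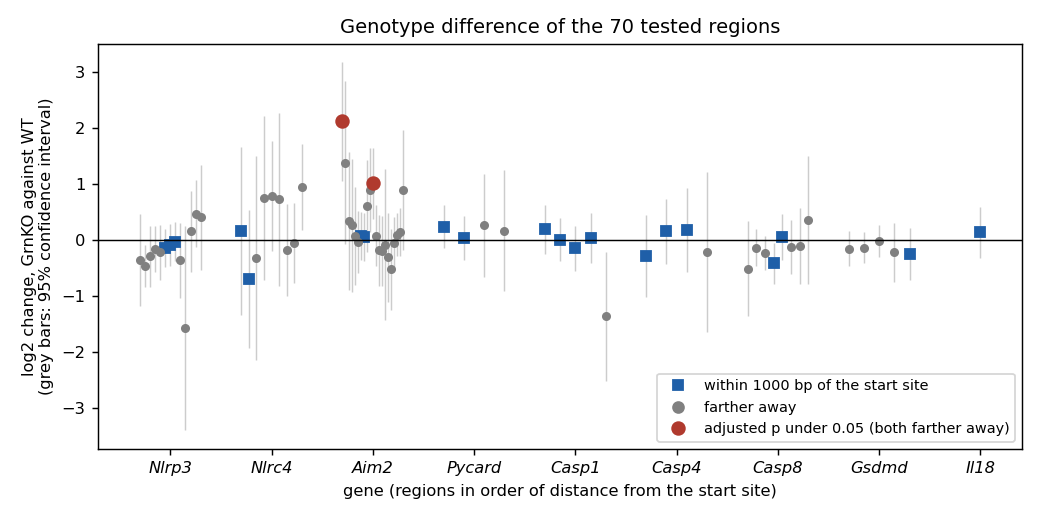
Log2 change in GrnKO against WT (vertical axis) of the 70 tested regions, grouped by gene and ordered by distance from the start site, with 95% confidence intervals from limma in grey. Blue squares lie within 1000 bp of a start site, grey circles farther away, and red circles mark the 2 Aim2 regions past the threshold. The squares lie between -0.70 and 0.24.

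The neighbourhood of each gene was examined in regions within 50 kb of its start site that the table names for other genes. Among 56 such tested regions outside the 9 genes 1 was higher and 3 were lower in GrnKO, next to 6.8% and 2.92% of all tested regions. The higher one is named for Cflar, an inhibitor of caspase-8, and lies 40.9 kb upstream of the Casp8 start site (chr1:58761182-58761982). It held 12.6 and 52.6 scaled tags in WT and 106 and 79.4 in GrnKO (log2 change 1.56, SE 0.41, limma adjusted p = 0.0201).

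Of the lower ones, 1 is named for Casp12 (chr9:5343874-5344674) and lies 45.8 kb from the Casp1 and 35.4 kb from the Casp4 start site. It held 41.3 and 71.1 in WT and 28.4 and 18.2 in GrnKO (log2 change -1.43, SE 0.36, limma adjusted p = 0.0157). The input of WT replicate 1 held 311 there. The other lower regions are both named for Trim72, near Pycard. At 18.4 kb from the Pycard start site (chr7:128011835-128012635) the values were 473 and 579 in WT, against 421 and 468 in GrnKO (log2 change -0.46, SE 0.12, limma adjusted p = 0.0211). At 38.9 kb (chr7:128032402-128033202) they were 69.7 and 54.3 against 28.4 and 30.2 (log2 change -1.27, SE 0.33, limma adjusted p = 0.0196). No neighbouring region passed near Nlrp3, Nlrc4, Aim2, Gsdmd or Il18.

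Other genes of the pathway were taken from a list of 73 symbols: further sensors, licensing and regulatory factors, other caspases and necroptosis genes, other pore proteins, the IL-1 and IL-18 family, and priming genes. The table held 65 of them and 63 could be tested. On summed H3K27ac 3 were higher and 12 lower in GrnKO (limma, adjusted p under 0.05), next to 8.6% higher and 5.88% lower of all tested genes. The median log2 change was -0.14, next to -0.05 over all tested genes. The calls of lower genes depended on the scaling. In the authors' scaling alone 0 of the 63 were lower and 3 were higher, next to 1.08% and 10.6% of all tested genes. Of these 3, 2 were among those higher after TMM scaling, and the median of the list was 0.08 where that of all genes was 0.18. The calls also depended on having both GrnKO libraries, as did the calls over all tested regions.

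**Figure D5:**
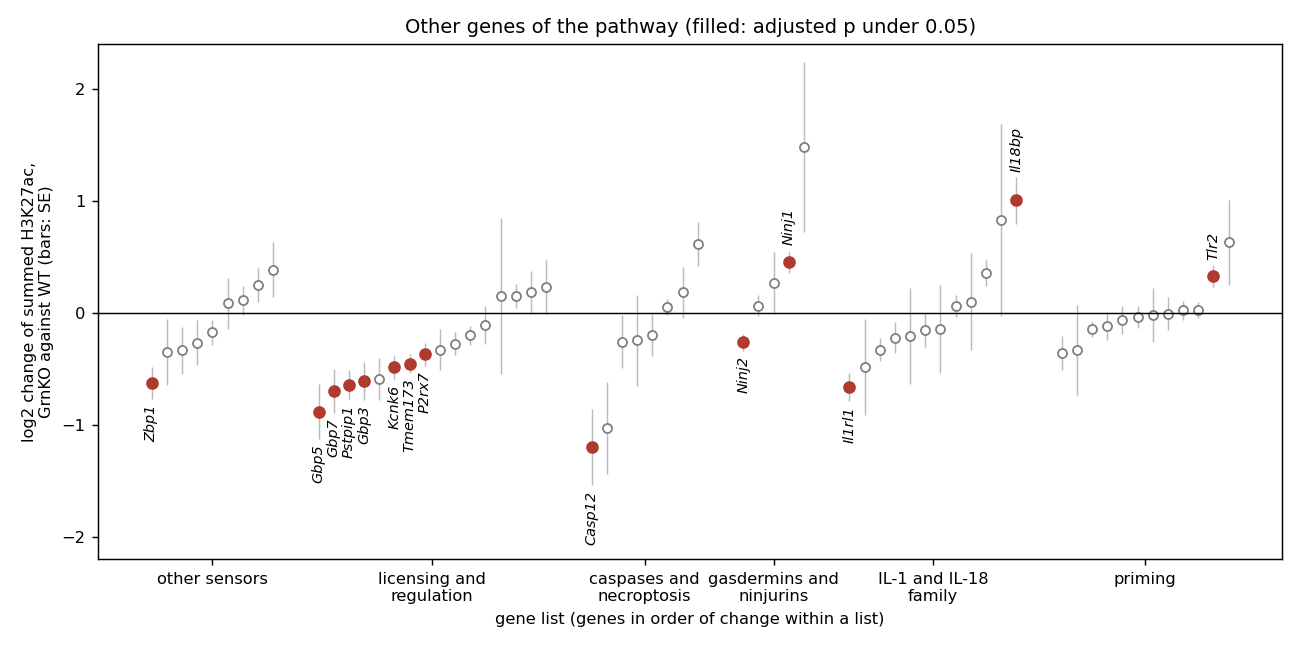
Log2 change of summed H3K27ac in GrnKO against WT (vertical axis) for 62 of the 63 tested other genes of the pathway, grouped by list, with SE bars from limma. Filled red points passed the threshold after TMM scaling. Of these points 11 lie below 0, from -1.20 at Casp12 to -0.26 at Ninj2, and 3 lie above.

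Licensing and regulatory factors held 7 of the 12 lower genes, out of 16 tested, with none higher. Of all tested genes 5.88% were lower and 8.6% higher. In the authors' scaling 0 of the 16 passed in either direction. Tmem173, the gene of the DNA-response adaptor STING, held 2353 and 2879 scaled tags in WT and 2150 and 2295 in GrnKO (log2 change -0.45, SE 0.08, limma adjusted p = 0.0028). P2rx7, the ATP-gated channel whose opening triggers NLRP3, held 1180 and 1401 against 1151 and 1175 (log2 change -0.37, SE 0.10, limma adjusted p = 0.0244). The values of both genes lay below both WT values in both GrnKO libraries. In the authors' scaling their log2 changes were -0.23 and -0.14, and neither passed (limma adjusted p = 0.682 and 0.804).

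The potassium channel gene Kcnk6, whose product has been tied to potassium efflux ahead of NLRP3, had a log2 change of -0.49 (SE 0.11, limma adjusted p = 0.0092). For Pstpip1, which encodes a pyrin-binding adaptor, it was -0.64 (SE 0.13, limma adjusted p = 0.0046). Over the alternatives the Pstpip1 change ran from -1.73 to -0.42. The interferon-induced guanylate-binding proteins help expose bacterial ligands to AIM2 and caspase-11. Gbp5 held 173 and 147 scaled tags in WT and 92.1 and 111 in GrnKO (log2 change -0.88, SE 0.24, limma adjusted p = 0.0263). Gbp3 and Gbp7 had log2 changes of -0.61 and -0.70, and both passed the threshold. Txnip, which encodes a redox-regulated protein reported to bind NLRP3, did not pass (log2 change -0.28, SE 0.10, limma adjusted p = 0.0979).

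Among the cytokine genes Il18bp, whose product is a secreted decoy that binds IL-18, had the largest positive change of the called genes. It held 195 and 156 scaled tags in WT and 435 and 385 in GrnKO over 11 regions, without overlap, where the inputs summed to 0 and 89.8 for WT and 16.0 and 26.5 for GrnKO (log2 change 1.00, or 1.23 in the authors' scaling; SE 0.21, limma adjusted p = 0.0051). Il1rl1, the gene of the IL-33 receptor, held 598 and 777 in WT and 486 and 522 in GrnKO (log2 change -0.66, SE 0.13, limma adjusted p = 0.003).

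Il1b, the main cytokine substrate of caspase-1 besides Il18, held 1146 and 1606 scaled tags in WT, against 1205 and 1324 in GrnKO. The groups overlapped in the authors' scaling, and Il1b did not pass (log2 change -0.33, SE 0.11, limma adjusted p = 0.0524). The call turned with the setting: Il1b passed with the replicate number as a block (limma adjusted p = 0.0158), with a pseudocount of 5 (0.0494) and without WT replicate 1 (0.0020). It did not under the other scalings, tests, filters, region choices and replicates left out, and its change was -0.10 in the authors' scaling (limma adjusted p = 0.871).

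The ninjurins, membrane proteins of which NINJ1 ruptures the plasma membrane late in lytic death, differed in sign. Ninj1 held 929 and 1221 scaled tags in WT and 1693 and 1727 in GrnKO (log2 change 0.46, or 0.68 in the authors' scaling; SE 0.10, limma adjusted p = 0.0064). Ninj2 held 3327 and 4215 against 3599 and 3708, which overlapped in the authors' scaling, and its log2 change was -0.26 (SE 0.07, limma adjusted p = 0.0307). In that scaling the change was -0.04 (limma adjusted p = 0.965). Ninj2 was also not called with no filter, with DESeq2, or with TMM factors from the gene sums. The same held with non-overlapping regions or regions within 1000 bp only. Over the alternatives its change ran from -0.84 to -0.04.

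Zbp1, a sensor of Z-form nucleic acids that acts with caspase-8, was the only other sensor gene past the threshold of 9 tested, with 574 and 595 in WT and 423 and 462 in GrnKO (log2 change -0.63, SE 0.14, limma adjusted p = 0.0089). Its inputs summed to 104 to 481 scaled tags over its 48 regions. Further called genes, named after their values were seen, were Casp12 (-1.20) and the priming receptor Tlr2 (0.33). Tlr2 did not pass in the authors' scaling (log2 change 0.56, limma adjusted p = 0.136). With only regions where no input exceeded its pool's H3K27ac value, an alternative added after the data were seen, the other 14 remained called. That alternative left Casp12 with too little signal to be tested.

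Markers of the sorted cells and of others were summed the same way, in the authors' scaling, while calls of single markers are those after TMM scaling, where 8.6% of all tested genes were higher and 5.88% lower. The 6 microglial markers, such as P2ry12 and Tmem119, summed to 35367 and 48578 scaled tags in WT and 36727 and 39358 in GrnKO, which overlapped, and lay lower in GrnKO after TMM scaling, with 5 of the 6 called lower. Sums of 5 border macrophage markers were 670 and 843 in WT, against 1309 and 1166 in GrnKO, with 1 of 5 called higher. The 7 markers of neutrophils, a cell rich in several inflammasome products, summed to 86.5 and 62.1 in WT, against 102 and 91.9 in GrnKO, and 1 of the 5 that could be tested was called higher. The 4 astrocyte markers summed to 75.9 and 69.5 against 90.5 and 102, with none of 3 called. After TMM scaling the groups overlapped for neutrophil markers (105 and 60.0 against 94.2 and 84.9) and for astrocyte markers (91.9 and 67.1 against 83.7 and 94.1).

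In either scaling, sums were higher in both GrnKO libraries for the border macrophage, B cell (286 and 320 against 758 and 632, 3 genes), oligodendrocyte (1654 and 2169 against 2744 and 2905, 5 genes) and endothelial lists (664 and 918 against 1305 and 1406, 3 genes). Called were 1 of 2 tested B cell markers and 1 of 3 endothelial ones, both higher, and of 4 oligodendrocyte markers 1 higher and 1 lower. T cell markers summed to 134 to 185 over the 4 libraries (4 genes) with none of 3 called. The 5 monocyte markers summed to 570 and 663 in WT, against 549 and 456 in GrnKO, lower in both GrnKO libraries in either scaling. The 5 neuronal markers summed to 180 and 282 against 193 and 162, which overlapped, and after TMM scaling to 219 and 272 against 178 and 149, lower in both GrnKO libraries. In each of these lists 1 of 3 tested genes was called lower. At promoters, the median level of the microglial markers was 487 and 655 in WT, against 515 and 535 in GrnKO. For the neutrophil markers with a promoter region, 2 genes, it was 2.58 and 4.07 against 15.3 and 13.5, and for the 1 such endothelial gene 5.81 and 14.1 against 64.8 and 67.7. For border macrophages it was 30.7 and 30.7 in WT, against 92.4 and 90.4 in GrnKO (3 genes with a promoter region). Over the lists not named here it was at most 16.1 in any library. No listed marker in the table was at 0 in all 4 libraries. The part of these other cells in the Aim2 regions and the pathway calls was not tested.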

How the data were processed

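H3K27ac ChIP-seq and input libraries (8 in all) were analysed from 1 deposited table of 129304 regions of 800 bp. The authors counted tags at ATAC-seq peaks that passed a reproducibility (IDR) step, per the file headers, and their values are a signal: tags per region scaled to 10000000 tags per library. The submitters' processing notes name Bowtie2, HOMER, DESeq2 and build mm10, without versions; the handling of duplicate reads is not given in the sources used here. Multiplying by the library totals returned whole read ends (2 per tag, tolerance 0.00408 to 0.0200 ends by library) for 100% of the values. These recovered counts were used only for filtering and for the alternative tests with edgeR and DESeq2.

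The main test was limma (lmFit, eBayes with trend) on log2(value + 1) of the deposited signal after TMM scaling (factors 0.825 and 1.04 in WT, 1.08 and 1.08 in GrnKO), with genotype as its only term. Regions were kept by filterByExpr with a minimum of 10 tags, which left 80728 regions, and the same test was run on sums per gene (15380 genes). Benjamini-Hochberg adjustment ran over all tested regions or genes, with 0.05 as the threshold. R 4.3.3, limma 3.58.1, edgeR 4.0.16 and DESeq2 1.42.0 were used, and the tests were checked on simulated data. Reads carry no molecular identifiers in these values, so the floor of 3 tags covers counting error only. Inputs entered no fit.

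The 9 genes, the lists and the motifs were chosen with earlier results of these data known. Named were all 9 genes, their regions past the threshold, nearest to a start site or of smallest p, neighbouring regions past the threshold, up to 12 pathway genes past it by smallest p, and Il1b, Txnip and P2rx7. The values of 1 pathway gene, which stays in the counts, are not reported here. Alternatives covered the scaling, pseudocount, filter, test, replicate block, each replicate left out, the threshold and the regions summed.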

Additional observations from a re-analysis of the deposited data

How the results depend on the processing

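Of 632 values under alternatives, 510 kept direction and call or, for counts, stayed within 1.5 times, 64 became weaker, 6 stronger, 24 reversed and 28 moved. The cause was not tested, apart from the shift of all genes with the scaling. The count of 0 called genes among the 9 held under every alternative. Of member regions 1 was called with no filter and 1 with DESeq2, both higher, and leaving out a replicate gave 0 to 7 (0 to 4 higher, 0 to 3 lower); a lone library is then assumed to vary like the other group, and the 7 came without WT replicate 2. The share of all tested regions called also rose without either WT replicate and fell without either GrnKO replicate. The 7 is thus not a gain particular to these genes. Of all tested regions 4.26% were called with no filter and 9.43% with DESeq2. Without the filter the Aim2 intron 1 region had adjusted p = 0.0581 (limma). Pathway genes numbered 3 (0 lower) in the authors' scaling and 6 (3 lower) with regions within 1000 bp only. They were 0 to 21 without a replicate (0 to 6 higher, 0 to 15 lower), the most without WT replicate 1. Higher ones were 5 with a pseudocount of 5, with DESeq2, with TMM factors from gene sums (added after seeing the data) and at adjusted p under 0.1.

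Same-numbered replicates are different mice, and their deviations correlated at 0.034 over regions, so the numbers were not taken to pair the samples, although Xist and Y-linked signal differed by replicate number in both genotypes. With the number as a replicate block 2 member regions, 0 of the 9 genes and 19 pathway genes (5 higher, 14 lower) were called, among them Il1b. Calls over all tested regions rose too, from 9.72% without the block to 14.1% with it.

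Reversals concerned changes that were not called. In the authors' scaling the sums of Nlrp3 (0.065), Casp1 (0.20), Casp8 (0.0086) and Gsdmd (0.11) and the Nlrp3 region at 1 bp (0.14) were positive. Casp1 was also positive with DESeq2 (0.0027), with regions within 1000 bp (0.0076), without regions of high input (0.0068) and with gene-sum factors (0.0065). Nlrc4 was -0.38 within 1000 bp and Casp4 -0.21 beyond. With a replicate left out, Casp1 ran from -0.081 to 0.020, Casp4 from -0.13 to 0.18 and Il18, sum and region alike, from -0.10 to 0.36. The regions of Aim2 at -78 bp (-0.18 to 0.30), Nlrp3 at 1 bp (-0.35 to 0.17), Nlrc4 at -54 bp (-0.50 to 0.82) and Casp4 at -43 bp (-0.093 to 0.40) did likewise. Depth limits weak regions: 12 of the 82 could not be tested.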
